A study of Mus musculus with 9 samples.

Results

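The 9 genes described here are markers of the connective tissue of the ovary: Dcn, Lum, Pdgfra, Tcf21, Mfap4, Mfap5, Ogn, Dpt and Pi16. They were taken as a list of non-collagen stroma and fibroblast markers and found by symbol among 56748 Ensembl identifiers, and all 9 of 9 had a row. They were measured in granulosa cells, the somatic cells that surround the oocyte, isolated from wild-type female C57BL/6 mice and sequenced as polyadenylated RNA without culture. CTX_HCQ mice received cyclophosphamide, an alkylating drug that damages ovarian follicles, at 120 mg per kg by injection, with an oral daily dose of hydroxychloroquine, a lysosome-accumulating antimalarial, of 40 mg per kg that began 7 days ahead of cyclophosphamide and ended 4 weeks later. CTX mice received 120 mg per kg cyclophosphamide alone. Control mice received neither drug, and are called vehicle-treated in the design text but untreated in the sample labels. Each group had 3 libraries. Ages are not given in the sources used here, nor is whether a library came from 1 mouse or a pool, so p-values measure the spread between these libraries, which may be technical.

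Stromal fibroblasts lie between follicles and under the ovarian surface, and build a matrix of collagen fibrils, proteoglycans and elastic microfibrils. Small leucine-rich proteoglycans (Dcn, Lum and Ogn) bind collagen and set the thickness and spacing of its fibrils, and Dpt encodes a small matrix protein that binds decorin and promotes fibril assembly. Granulosa cells lie inside the follicle behind a basement membrane, so transcripts of fibroblast markers in a granulosa preparation are read here for their level in each library as well as for their difference between groups. In bulk RNA, fewer cells of a type and less RNA per cell cannot be told apart.

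Promoter sequences from RefSeq (build GRCm38.p6), from 250 bases before to 50 bases after the start of each gene, were at hand for 5 of the 9 genes: Pdgfra, Tcf21, Ogn, Dpt and Pi16. Below are those of Tcf21, whose protein is a basic helix-loop-helix transcription factor, and of the 3 genes whose promoter held CAGCTG, one form of the E-box that such factors bind. Capitals mark the E-box CAGCTG, the TATA box TATAAA on either strand, and the CCAAT box. Ogn is chr13:49607765-49608064 on the plus strand, Dpt is chr1:164796413-164796712 on the plus strand, Pi16 is chr17:29318632-29318931 on the plus strand and Tcf21 is chr10:22820094-22820393 on the minus strand.
Ogn: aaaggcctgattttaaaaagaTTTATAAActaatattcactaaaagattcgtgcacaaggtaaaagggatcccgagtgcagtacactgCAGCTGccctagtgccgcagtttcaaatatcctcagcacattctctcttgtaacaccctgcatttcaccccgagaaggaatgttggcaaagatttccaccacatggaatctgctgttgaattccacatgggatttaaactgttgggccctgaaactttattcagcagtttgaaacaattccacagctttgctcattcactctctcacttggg
Dpt: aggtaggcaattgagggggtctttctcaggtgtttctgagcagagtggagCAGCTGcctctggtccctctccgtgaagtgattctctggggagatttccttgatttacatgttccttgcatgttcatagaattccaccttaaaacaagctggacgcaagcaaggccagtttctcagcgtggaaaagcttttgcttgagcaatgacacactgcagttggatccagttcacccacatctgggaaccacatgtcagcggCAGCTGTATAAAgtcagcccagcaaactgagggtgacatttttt
Pi16: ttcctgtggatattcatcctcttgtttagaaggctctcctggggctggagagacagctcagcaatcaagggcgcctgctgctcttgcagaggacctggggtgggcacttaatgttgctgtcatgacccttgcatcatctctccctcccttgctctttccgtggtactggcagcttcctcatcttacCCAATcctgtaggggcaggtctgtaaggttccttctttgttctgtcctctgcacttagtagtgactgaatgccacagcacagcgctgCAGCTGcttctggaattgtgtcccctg
Tcf21: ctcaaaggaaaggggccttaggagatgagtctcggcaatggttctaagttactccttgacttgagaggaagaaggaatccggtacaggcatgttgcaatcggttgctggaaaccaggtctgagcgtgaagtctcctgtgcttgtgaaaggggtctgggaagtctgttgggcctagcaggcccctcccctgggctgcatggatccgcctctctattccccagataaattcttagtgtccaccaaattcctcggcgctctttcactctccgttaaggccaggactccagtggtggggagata

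The search covered both strands and 3 motifs. CAGCTG is its own reverse complement, while TATAAA was also sought as its reverse complement TTTATA and CCAAT as its reverse complement ATTGG. The E-box CAGCTG was in 3 of the 5 promoters, beginning at -200 and at 7 from the start site in Dpt, at -162 in Ogn and at 24 in Pi16. It was in 16.3% of all 32851 RefSeq promoters of 300 bases. TATAAA was in 2 of the 5, at 13 in Dpt directly after the second CAGCTG, and at -227 in Ogn, where it overlaps a copy on the other strand at -229. The share among all promoters was 13.6%. CCAAT was in 1 of the 5, at -64 in Pi16, and in 37.4% of all promoters. None of the 3 motifs was in the Pdgfra or Tcf21 promoter. These matches describe letters in the sequence, and binding was not measured.

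Recovered reads per library ran from 13879655 in CTX_HCQ 3 to 17739815 in Control 2. The granulosa label was checked with Amh, the hormone of growing follicles, at 172 to 540 FPKM (reads scaled to gene length and library size), and with Foxl2, the transcription factor of granulosa identity, at 67.8 to 104 FPKM. Markers of other cells were above 0 in all 9 libraries: Col1a1 (fibroblasts) at 27.1 to 73.8 FPKM, Acta2 (smooth muscle) at 32.3 to 123, Cyp17a1 (theca) at 0.584 to 45.5, Pecam1 (endothelium) at 2.37 to 13.0, Krt19 (epithelium) at 45.0 to 79.0, Adipoq (adipocytes) at 1.01 to 12.7 and Ptprc (leukocytes) at 0.416 to 0.995. CTX 3 stood apart, with 28.9% of its FPKM in mitochondrial transcripts against 11.7% to 17.5% in the other 8 libraries, and with 339 FPKM of the oviduct gene Ovgp1 against at most 91.0 elsewhere. Oviduct and cilia genes were also high in the other CTX libraries and in Control 1: their list of 8, with 0 of them at 0 in every library, summed to 14.2 to 21.6 FPKM in CTX_HCQ, 79.1 to 393 in CTX and 8.33 to 84.7 in Control. CTX_HCQ 3 had the fewest reads and the lowest FPKM sum over all genes, 246449, against 288395 to 378232 in the others. Values without single libraries are given where leaving one out turned the direction of a gene that was tested.

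On the FPKM scale, which is per length, the genes differed widely in level. Averaged over 9 libraries, Dcn was at 24.9 FPKM, Ogn at 15.2, Lum at 13.2, Tcf21 at 6.70, Mfap4 at 5.82, Dpt at 3.80, Pdgfra at 3.55, Mfap5 at 1.09 and Pi16 at 0.168. Dcn ranked above 85.1% of the 14431 genes tested by its mean, and Mfap5 above 6.03%. Neighbours in this order overlapped in their libraries, except that every Pdgfra value lay above every Mfap5 value, and every Mfap5 value above every Pi16 value. Pi16 was under 1 FPKM in all 9 libraries and missed the filter (at least 1 FPKM in at least 3 libraries), so 8 of the 9 genes were tested.

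**Figure D1:**
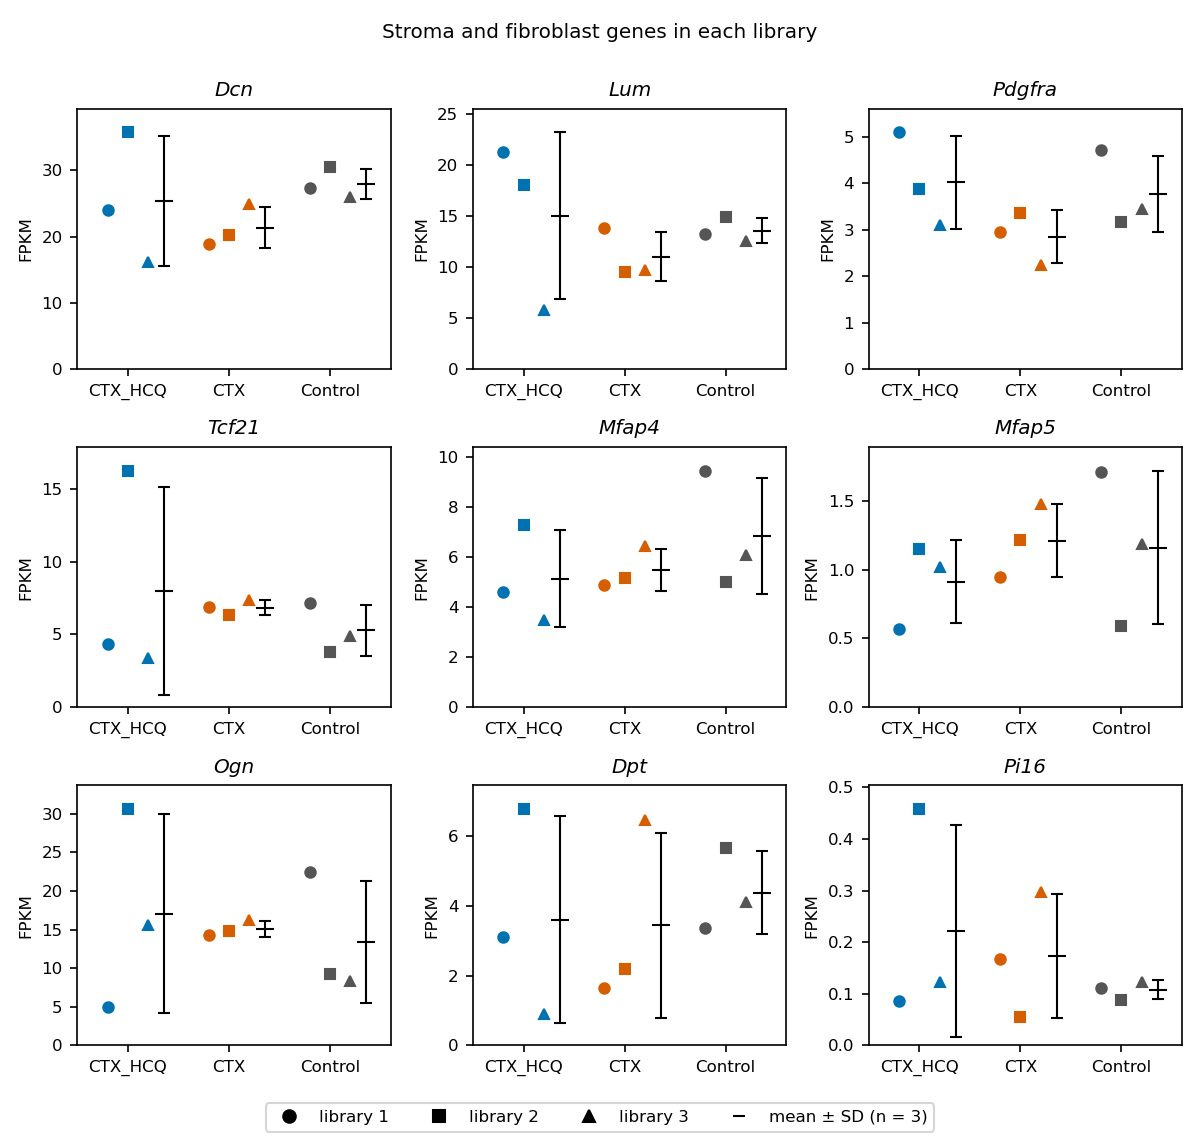
FPKM of the 9 genes in each library, by group; symbols mark the library number and black bars the mean ± SD of 3 libraries. The CTX_HCQ libraries had the largest SD for all genes except Mfap4 and Mfap5, whose SD was largest in Control. The Pdgfra libraries lay between 2.23 and 5.10 FPKM in all groups.

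The proteoglycan genes come first. Dcn (ENSMUSG00000019929), which encodes decorin, was at 24.0, 35.7 and 16.2 FPKM in CTX_HCQ, at 18.9, 20.3 and 24.9 FPKM in CTX, and at 27.3, 30.5 and 26.0 FPKM in Control. The CTX libraries all lay below the Control libraries, and the CTX_HCQ libraries held both the highest and the lowest value of the 9. Lum (ENSMUSG00000036446), which encodes lumican, a keratan sulphate proteoglycan of collagen fibrils, was at 21.3, 18.0 and 5.80 FPKM in CTX_HCQ, at 13.8, 9.54 and 9.70 FPKM in CTX, and at 13.2, 14.9 and 12.6 FPKM in Control. All 3 groups overlapped, and CTX_HCQ again held both extremes. Ogn (ENSMUSG00000021390), which encodes osteoglycin, was at 5.03, 30.6 and 15.6 FPKM in CTX_HCQ, at 14.2, 14.8 and 16.3 FPKM in CTX, and at 22.5, 9.25 and 8.35 FPKM in Control. The CTX libraries were close together, with an SD of 6.94% of their mean, against 75.4% in CTX_HCQ and 59.3% in Control.

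Dpt (ENSMUSG00000026574) was at 3.11, 6.77 and 0.907 FPKM in CTX_HCQ, at 1.65, 2.18 and 6.46 FPKM in CTX, and at 3.35, 5.66 and 4.12 FPKM in Control, on 24 to 204 reads. Its highest library was 7.46 times its lowest, and the groups overlapped. Mfap4 (ENSMUSG00000042436), a microfibril-associated glycoprotein of elastic fibres, was at 4.61, 7.26 and 3.49 FPKM in CTX_HCQ, at 4.89, 5.14 and 6.43 FPKM in CTX, and at 9.44, 4.99 and 6.09 FPKM in Control. Control 1 was its highest library, and the groups overlapped. Mfap5 (ENSMUSG00000030116), a microfibril protein that binds fibrillin, was at 0.571, 1.15 and 1.02 FPKM in CTX_HCQ, at 0.944, 1.21 and 1.48 FPKM in CTX, and at 1.71, 0.590 and 1.18 FPKM in Control, on 34 to 104 reads. Its groups overlapped, with the lowest library in CTX_HCQ and the highest in Control.

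Pdgfra (ENSMUSG00000029231), the receptor through which platelet-derived growth factors act on mesenchymal cells, was at 5.10, 3.87 and 3.10 FPKM in CTX_HCQ, at 2.96, 3.36 and 2.23 FPKM in CTX, and at 4.71, 3.16 and 3.44 FPKM in Control. It had one of the narrowest ranges, with a highest library 2.28 times the lowest. Tcf21 (ENSMUSG00000045680), a transcription factor of mesenchymal progenitors, was at 4.34, 16.2 and 3.41 FPKM in CTX_HCQ, at 6.86, 6.31 and 7.34 FPKM in CTX, and at 7.17, 3.77 and 4.88 FPKM in Control. CTX_HCQ 2 stood above all other libraries. Pi16 (ENSMUSG00000024011), a marker of adventitial fibroblasts, was at 0.0853, 0.458 and 0.123 FPKM in CTX_HCQ, at 0.168, 0.0554 and 0.297 FPKM in CTX, and at 0.111, 0.0876 and 0.124 FPKM in Control. These values rest on 6 to 51 reads, so differences of a few reads move them.

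Cyclophosphamide alone was compared with no drug in CTX against Control. None of the 8 genes tested was called: limma called 0 of 8 at an adjusted p under 0.05, and called 0% of all 14431 genes (13 without Control 1). At an unadjusted p under 0.05, 0 of 8 genes stood against 7.8% of all genes (1126) by limma. Voom on recovered reads called 0 genes and had 1131 (7.84%) at an unadjusted p under 0.05. Dcn was at 21.4 ± 3.11 FPKM in CTX and 27.9 ± 2.30 FPKM in Control (SD, n = 3 each), a log2 difference of -0.38 (SE 0.26, limma adjusted p = 0.680). It was the 1 of 8 genes whose groups did not overlap, where 19.7% of all genes did not overlap and 11% were, like Dcn, lower in CTX. Pdgfra had a log2 difference of -0.31 (SE 0.21, limma adjusted p = 0.679), Lum of -0.29 (SE 0.38), Mfap4 of -0.24 (SE 0.27) and Dpt of -0.41 (SE 0.50). Ogn at 0.30 (SE 0.53), Tcf21 at 0.35 (SE 0.44) and Mfap5 at 0.06 (SE 0.25) lay on the other side of 0. The 8 genes had a median log2 difference of -0.27, with 3 above 0, against a median of -0.0045 and 49.5% above 0 over all genes tested. Their median was -0.092 without Control 1 and -0.15 without CTX 1. Mfap4 stood at -0.014 and Ogn at 0.72 without Control 1, and Dpt at -0.12 without CTX 1 and -0.86 without CTX 3. Without CTX 3 and CTX_HCQ 3 together, Dcn at -0.49 and Dpt at -0.86 had unadjusted limma p of 0.0390 and 0.0228, each with an adjusted p of 0.653. In the fit of only the 2 groups compared, Dcn had an unadjusted limma p of 0.0467 (adjusted 0.341). The shares of all genes under 0.05 in these alternative fits are not given here. Mfap5 turned to -0.14 without Control 2 and to -0.025 without CTX 3.

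Hydroxychloroquine on top of cyclophosphamide was compared with cyclophosphamide alone in CTX_HCQ against CTX. Again 0 of 8 genes were called by limma, as were 0% of all genes (10 without Control 1), and voom called 0. At an unadjusted p under 0.05 there were 0 of 8 genes by limma, against 5.44% of all genes (785), and 745 of all genes (5.16%) by voom. Pdgfra had the smallest p of the 8, at 4.02 ± 1.01 FPKM in CTX_HCQ and 2.85 ± 0.571 FPKM in CTX (SD, n = 3 each), a log2 difference of 0.37 (SE 0.21, limma adjusted p = 0.906). The log2 differences of the others were 0.26 for Lum (SE 0.38), 0.18 for Dcn (SE 0.26), -0.02 for Dpt (SE 0.50), -0.08 for Tcf21 (SE 0.44), -0.12 for Mfap4 (SE 0.27), -0.13 for Ogn (SE 0.53) and -0.22 for Mfap5 (SE 0.25). No gene of the 8 had groups without overlap, where 8.02% of all genes did. Their median was -0.05 with 3 of 8 above 0, beside 0.01 and 52.1% over all genes tested. The direction rested on single libraries: the median was -0.33 without CTX_HCQ 2, 0.37 without CTX_HCQ 3, 0.084 without CTX 3 and 0.054 without CTX_HCQ 1. It was 0.018 with libraries scaled to their sum without mitochondrial genes. Without CTX_HCQ 2, Tcf21 stood at -0.69, Dpt at -0.51, Mfap4 at -0.36 and Dcn at -0.098. Tcf21 then had an unadjusted limma p of 0.0160 (adjusted 0.221). Without CTX_HCQ 3, Tcf21 stood at 0.29, Dpt at 0.51, Mfap4 at 0.078, Dcn at 0.45 and Lum at 0.79 (limma adjusted p = 0.678). Dpt turned to 0.44 without CTX 3, while Ogn turned to 0.51, Tcf21 to 0.16 and Lum to -0.062 without CTX_HCQ 1.

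Both drugs were compared with no drug in CTX_HCQ against Control, which shares its libraries with the other comparisons. The 0 of 8 genes called by limma stood beside 0% of all genes, and voom called 0. At an unadjusted p under 0.05 there were 0 of 8 genes by limma, against 2.16% of all genes (312), and 290 of all genes (2.01%) by voom. Mfap4 had the smallest p, at 5.12 ± 1.94 FPKM in CTX_HCQ and 6.84 ± 2.32 FPKM in Control (SD, n = 3 each), a log2 difference of -0.36 (SE 0.27, limma adjusted p = 1). The log2 differences of the others ran from -0.43 for Dpt (SE 0.50) to 0.27 for Tcf21 (SE 0.44), with Dcn at -0.20, Mfap5 at -0.16, Lum at -0.03, Pdgfra at 0.07 and Ogn at 0.16. No gene of the 8 had groups without overlap, where 6.31% of all genes did, and their median was -0.09 with 3 of 8 above 0, beside -0.01 and 48.1% over all genes tested. That median was -0.36 without CTX_HCQ 2, 0.085 without CTX_HCQ 3 and -0.011 without Control 1. Without CTX_HCQ 2, Tcf21 stood at -0.33 and Ogn at -0.39, and without CTX_HCQ 3, Dcn stood at 0.071, Dpt at 0.095 and Lum at 0.50. Mfap4 had an unadjusted limma p of 0.0393 without CTX_HCQ 2 (adjusted 0.986), and Lum of 0.0333 without CTX_HCQ 3 (adjusted 0.941). Pdgfra turned to -0.080 without CTX_HCQ 1, and Mfap5 to 0.025 without Control 1. Lum turned to 0.036, Pdgfra to -0.023 and Ogn to -0.014 without Control 2, and Ogn to -0.081 without Control 3.

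**Figure D2:**
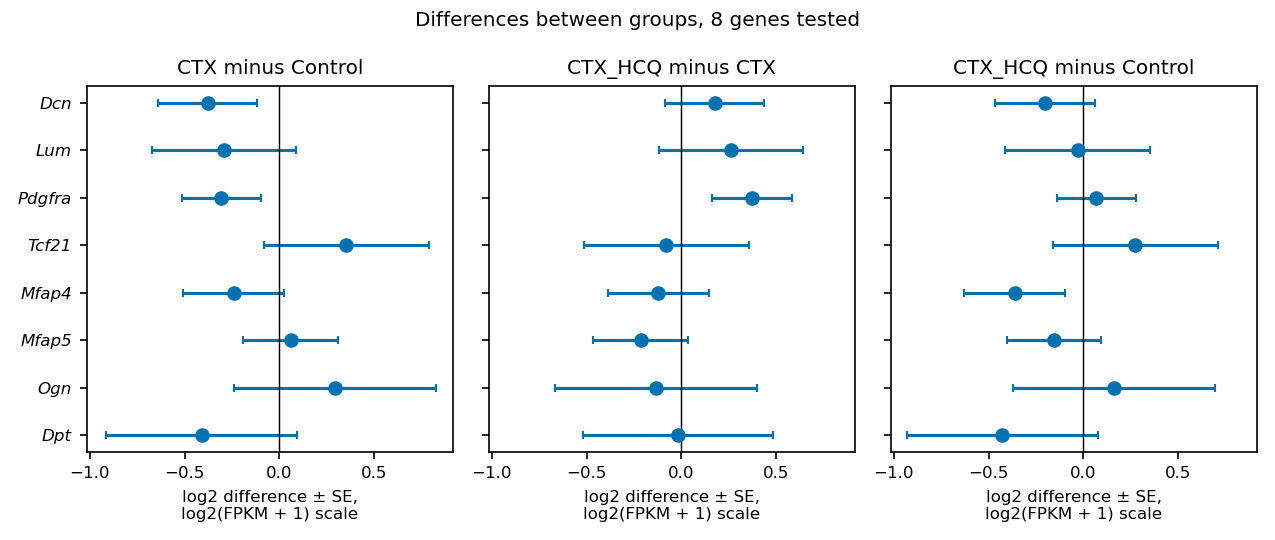
Log2 difference ± SE on the log2(FPKM + 1) scale for the 8 genes tested, in 3 comparisons, with the vertical line at 0. None passed limma's adjusted p of 0.05, and Pdgfra is the gene farthest above 0 in CTX_HCQ minus CTX, at 0.37.

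The CTX_HCQ libraries covered the widest range. The summed FPKM of the 9 genes was 68.2, 120.1 and 49.6 in CTX_HCQ, 64.5, 62.9 and 75.1 in CTX, and 89.5, 72.9 and 66.7 in Control. CTX_HCQ 2 was the highest library for 5 of the 9 genes (Dcn, Tcf21, Ogn, Dpt and Pi16), and CTX_HCQ 3 the lowest for 5 (Dcn, Lum, Tcf21, Mfap4 and Dpt). As a share of each library's FPKM sum, the 9 genes made up 0.0232%, 0.0365% and 0.0201% in CTX_HCQ, 0.0187%, 0.0207% and 0.0199% in CTX, and 0.0293%, 0.0253% and 0.0219% in Control. By that share CTX 1, not CTX_HCQ 3, was the lowest library. The genes did not move as one: in CTX_HCQ 1, Lum and Pdgfra were at their highest while Ogn and Mfap5 were at their lowest. The ratio of Ogn to Lum FPKM was 0.236, 1.70 and 2.68 in CTX_HCQ, 1.03, 1.55 and 1.68 in CTX, and 1.71, 0.621 and 0.664 in Control.

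Markers of several other cell types were high or low in some of the same libraries, and their part in the result was not tested. Smooth muscle Acta2 was at 41.9, 123 and 39.6 FPKM in CTX_HCQ, at 75.8, 67.5 and 83.8 FPKM in CTX, and at 106, 32.3 and 46.4 FPKM in Control. Myh11, the smooth muscle myosin heavy chain, was at 3.96, 18.0 and 4.90 FPKM in CTX_HCQ, at 5.14, 5.20 and 11.6 FPKM in CTX, and at 9.99, 3.53 and 3.39 FPKM in Control. Both were highest in CTX_HCQ 2, as the stroma sum was, and Acta2 was next highest in Control 1. All 11 genes of the smooth muscle and pericyte list were in the table and 0 of them were at 0 in every library. Their summed FPKM ranged from 75.7 to 234 in CTX_HCQ, from 124 to 158 in CTX and from 59.4 to 188 in Control. Not all genes of this list were highest in CTX_HCQ 2. Notch3 was highest in Control 1 at 4.33 FPKM, while Pdgfrb at 11.2 and Mcam at 19.9 FPKM were highest in CTX 1. A list of 20 other fibroblast and stroma genes ranged from 531 to 999.7 in CTX_HCQ, from 789 to 921 in CTX and from 957 to 1039 in Control, with CTX_HCQ 3 the lowest library. The list sums given here are not shares of each library's FPKM sum. That sum was lowest in CTX_HCQ 3, at 246449, so the lowest library of a list may differ by share. The 8 macrophage genes summed to 91.6, 115 and 66.6 FPKM in CTX_HCQ, 89.9, 93.3 and 113 in CTX, and 104, 94.1 and 70.3 in Control. By that sum CTX_HCQ 2 was the highest and CTX_HCQ 3 the lowest library. Not all genes of this list followed it. Adgre1 was highest in Control 1 at 3.71 FPKM and Cd68 in CTX 3 at 16.7 FPKM. The mean standardised level of the macrophage list was highest in Control 1, at 0.637, against 0.615 in CTX_HCQ 2. The 10 endothelial genes summed to 45.6, 115 and 49.3 FPKM in CTX_HCQ, 120.1, 79.8 and 60.4 in CTX, and 94.2, 37.8 and 36.9 in Control. None of the genes of either list was at 0 in every library. Other lists ran differently. The 9 surface epithelium genes had their lowest sum in CTX_HCQ 2, at 204 FPKM, against 305 in CTX_HCQ 1 and 299 in CTX_HCQ 3. The fibrillar and type VI collagen genes had their highest sum in CTX_HCQ 1, at 429 FPKM, against 329 in CTX_HCQ 2.

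**Figure D3:**
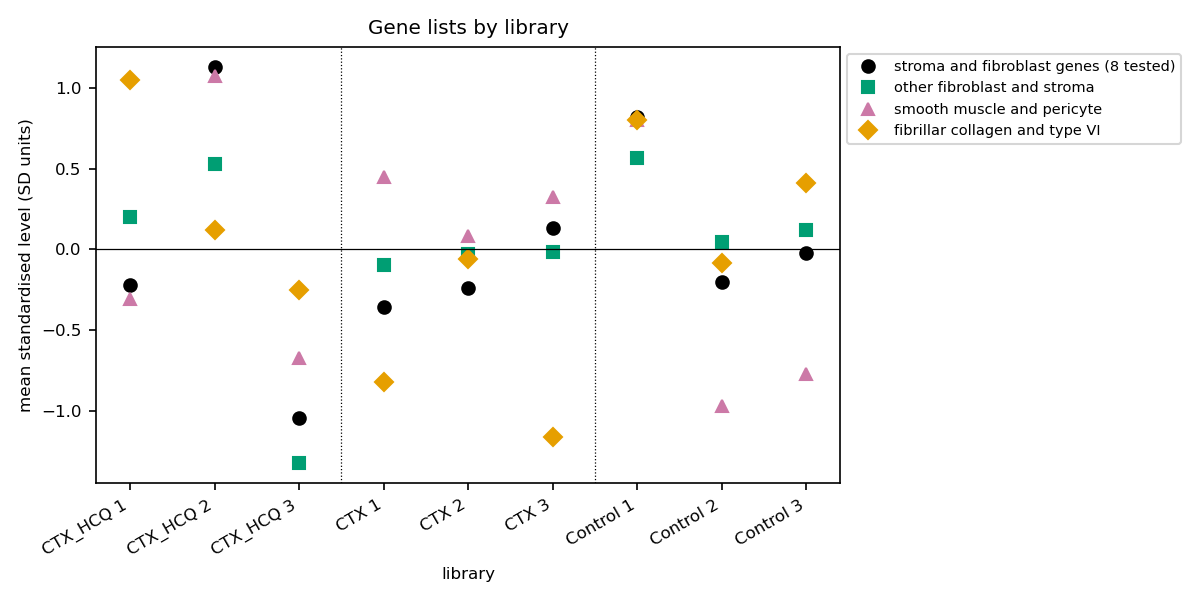
Mean standardised level in SD units of 4 gene lists in each library, with dotted lines between groups. CTX_HCQ 2 at 1.13 and CTX_HCQ 3 at -1.04 are the extremes of the stroma and fibroblast genes, and the smooth muscle list is also highest in CTX_HCQ 2, at 1.07. The collagen list is highest in CTX_HCQ 1, at 1.05, and stands at 0.119 in CTX_HCQ 2.

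Across the 9 libraries, 28 pairs of the 8 genes were correlated on the log2(FPKM + 1) scale, and 23 of the correlations were positive, with a median Pearson r of 0.41. Dcn and Dpt were the closest pair, with r = 0.909 (exact permutation p = 0.000896, adjusted over 28 pairs 0.0251) and Spearman's rho = 0.883 (exact permutation p = 0.00308, adjusted 0.0862). Without CTX_HCQ 2 and CTX_HCQ 3, the libraries farthest from the median of Dcn, r was 0.808. The other pairs did not pass adjustment: Tcf21 and Ogn had r = 0.737 (exact permutation p = 0.0246, adjusted 0.215) and rho = 0.667 (p = 0.0589, adjusted 0.275), with r = 0.844 without those libraries. Dcn and Lum, neighbours on chromosome 10, had r = 0.673 (exact permutation p = 0.0458, adjusted 0.215) and rho = 0.533 (p = 0.148, adjusted 0.319). Their r was 0.217 without CTX_HCQ 2 and CTX_HCQ 3 and 0.609 without CTX_HCQ 2 alone, so that relation depends on the libraries kept. Lum ran against Mfap5 at r = -0.395 (exact permutation p = 0.293, adjusted 0.547) and rho = -0.55 (p = 0.133, adjusted 0.319). The median over the 28 pairs was 0.222 without CTX_HCQ 2, an alternative chosen after seeing the data.

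**Figure D4:**
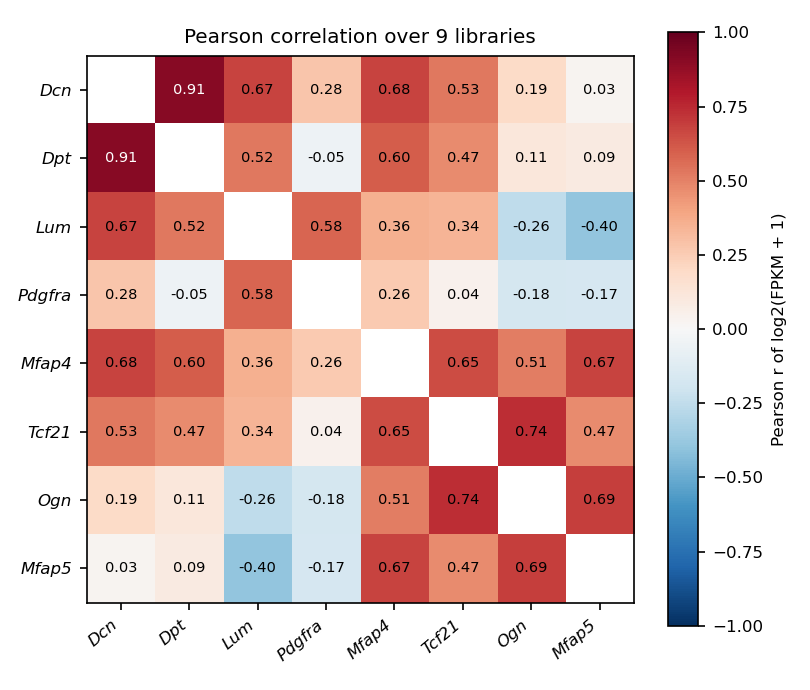
Pearson correlation of log2(FPKM + 1) over 9 libraries for each pair of the 8 genes tested, from -1 (blue) to 1 (red). Dcn with Dpt is highest at 0.909, and Lum with Mfap5 lowest at -0.395.

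The genes most like the mean standardised level of the 8 were sought among all genes tested, with the likeness being Pearson's r over 9 libraries. Among the 10 closest were Rxylt1 at 0.940, Tex264 at 0.927, Pdia6 at 0.924, AA545190 at 0.918, Tpm2 at 0.902, Serpinf1 at 0.900, Kifc1 at 0.895, and Ankrd9 and Tmed10-ps at 0.892. All 10 were highest in CTX_HCQ 2. The mean level of the 8 is itself highest in CTX_HCQ 2, and the genes were picked for their likeness to it. The shared highest library therefore follows largely from the choice, and the values describe these libraries and carry no p.

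Chromosomal neighbours of the proteoglycan genes were read from the same libraries. Dcn and Lum lie beside Kera and Epyc on chromosome 10. Kera, a corneal proteoglycan, had 2 reads in CTX 1, 1 read in Control 1 and 0 elsewhere, and Epyc, a cartilage proteoglycan, had 0 reads in all 9 libraries. Ogn lies beside Omd, Aspn and Ecm2 on chromosome 13, and all 3 were expressed. Omd, which encodes osteomodulin, was at 1.74, 5.93 and 10.8 FPKM in CTX_HCQ, at 5.16, 5.33 and 10.9 FPKM in CTX, and at 12.3, 2.23 and 1.08 FPKM in Control. Aspn, which encodes asporin, was at 0.589, 7.73 and 1.94 FPKM in CTX_HCQ, at 6.01, 3.37 and 3.10 FPKM in CTX, and at 4.55, 0.710 and 1.31 FPKM in Control. The groups overlapped for both genes, and Control 1 was the highest Control library for each, as for Ogn. With Ogn, r was 0.768 for Omd (exact permutation p = 0.0154, adjusted over 3 pairs 0.0182), 0.878 for Aspn (p = 0.0017, adjusted 0.0051) and 0.761 for Ecm2 (p = 0.0182, adjusted 0.0182). Spearman's rho was 0.883 for Omd (exact permutation p adjusted to 0.00462), 0.767 for Aspn (0.0214) and 0.9 for Ecm2 (0.00462). Leaving out CTX_HCQ 1 and CTX_HCQ 2, the libraries farthest from the median of Ogn, gave r of 0.940 for Omd, 0.750 for Aspn and 0.848 for Ecm2. Nearby genes of other families were described without a test. With Ogn, r was 0.589 for Nol8 and -0.498 for Iars. A high r was not particular to proteoglycan genes, since Rps12, near Tcf21, had r = 0.914 with Tcf21.

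**Figure D5:**
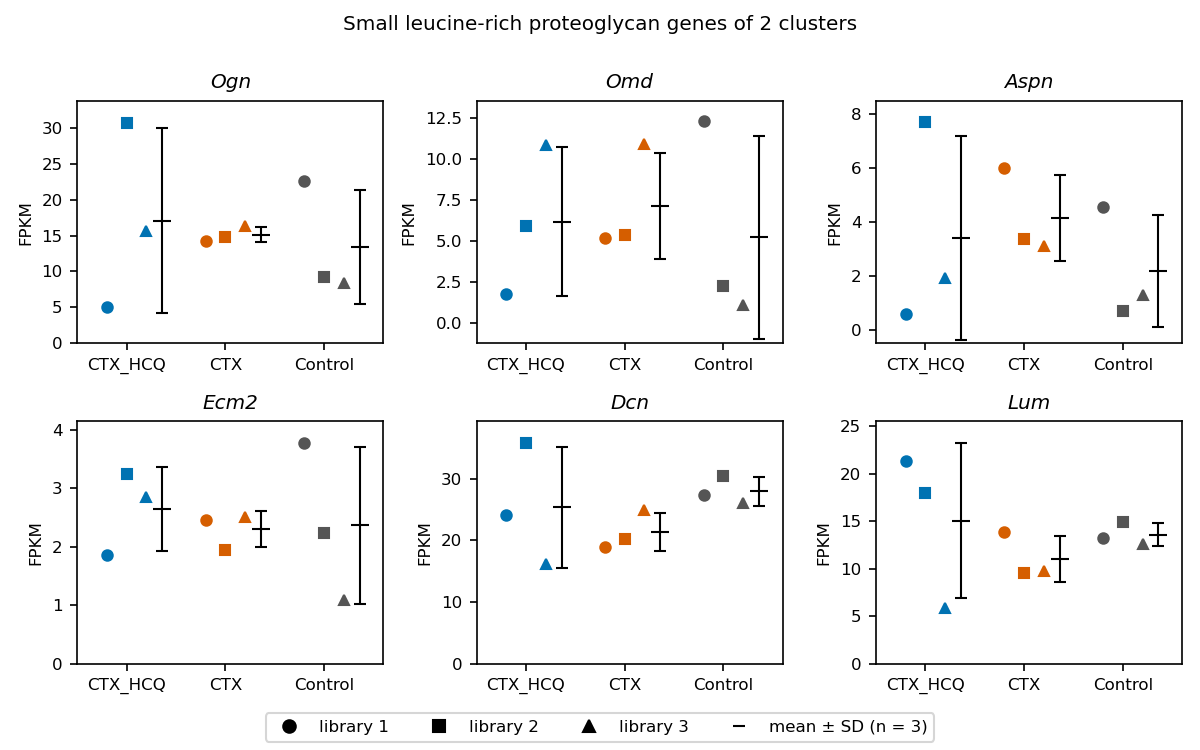
FPKM of Ogn and its neighbours Omd, Aspn and Ecm2, and of Dcn and Lum, in each library by group; symbols mark the library number and black bars the mean ± SD of 3 libraries. In Control, the first library is highest for Ogn, Omd, Aspn and Ecm2 and not for Dcn or Lum.

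Related gene lists were read from the same fit, and limma called 0 genes of any of them in any comparison. In CTX against Control, the 18 elastic fibre and microfibril genes, which hold Mfap4 and Mfap5, had 14 log2 differences below 0 and a median of -0.21, with 3 of 18 at an unadjusted p under 0.05, where 7.8% of all genes were. Emilin2, an elastin-associated glycoprotein, was at 5.48 ± 0.857 FPKM in CTX and 9.48 ± 0.149 FPKM in Control (SD, n = 3 each), a log2 difference of -0.70 (limma adjusted p = 0.639). Fbln2 at -0.70 and Eln, the elastin gene, at -0.47 were next. All 8 fibrillar and type VI collagen genes lay below 0, with a median of -0.46, led by Col5a1 at -0.80, Col5a2 at -0.56 and Col3a1 at -0.61. These medians stand beside -0.0045 over all genes tested. The 12 tested of 15 small leucine-rich proteoglycans had 7 above 0 and a median of 0.08, with Tsku at -0.51 and Fmod at -0.51 of smallest p. Of the 7 genes of platelet-derived growth factors and their receptors, 2 lay above 0 with a median of -0.21, and the ligand gene Pdgfd, at -0.92, had the smallest p. The 18 tested of 20 other fibroblast and stroma genes had 6 above 0 and a median of -0.11, with Efemp1 at -0.31 and Mgp at 0.50 after Fbln2. The 10 tested of 17 mesenchymal transcription factors had 9 above 0 and a median of 0.29, led by Prrx2 at 0.92, Osr2 at 0.55 and Meox1 at 0.85. Ly6a, an adventitial fibroblast and endothelial antigen, was at 20.1 ± 3.05 FPKM in CTX and 8.59 ± 2.50 FPKM in Control (SD, n = 3 each), a log2 difference of 1.16 (limma adjusted p = 0.639). Its list of 10 tested adventitial genes had 7 above 0 and a median of 0.27, and the endothelial list had 9 of 9 tested above 0 and a median of 0.82. The oviduct and cilia list had 8 of 8 above 0 and a median of 1.08, with 7 of 8 at an unadjusted p under 0.05. The erythroid list had 0 of 5 above 0 and a median of -1.44, and summed to 341 to 569 FPKM in CTX and 471 to 3310 in Control, where Control 3 held the highest sum. The part of these cell types in the list values was not tested.

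In CTX_HCQ against CTX, the elastic fibre list had 11 of 18 above 0 and a median of 0.10. Eln was at 5.14 ± 0.424 FPKM in CTX_HCQ and 3.16 ± 0.408 FPKM in CTX (SD, n = 3 each), a log2 difference of 0.56 (limma adjusted p = 0.511), and Fbln2 was at 0.55 and Emilin2 at 0.43. All 8 collagen genes lay above 0, with a median of 0.45, and Col6a3 at 0.48, Col1a1 at 0.59 and Col5a1 at 0.56 had the smallest p. Of the 7 growth factor and receptor genes, 6 lay above 0 with a median of 0.33, among them the ligand genes Pdgfa at 0.52 and Pdgfb at 0.37 beside Pdgfra. In the adventitial list 9 of 10 lay below 0 with a median of -0.25, with Cd34 at -0.70 and Ly6a at -0.72. Both are also endothelial, and the endothelial list had 7 of 9 below 0 with a median of -0.43. The oviduct and cilia list had 7 of 8 below 0 and a median of -1.29, with 7 of 8 at an unadjusted p under 0.05, where 5.44% of all genes were. Foxj1, the transcription factor of motile cilia, was at 1.56, 0.262 and 1.94 FPKM in CTX_HCQ and at 10.6, 14.0 and 21.5 FPKM in CTX, without overlap (limma adjusted p = 0.522). The proteoglycan list had 7 of 12 above 0 (median 0.07), with Prelp at -0.51 of smallest p, the transcription factor list 4 of 10 (median -0.08) and the other fibroblast and stroma list 7 of 18 (median -0.05). In CTX_HCQ against Control the elastic fibre list had 7 of 18 above 0 (median -0.09), the collagen list 3 of 8 (median -0.05), the growth factor list 5 of 7 (median 0.07), the adventitial list 5 of 10 (median -0.06), the transcription factor list 9 of 10 (median 0.21), the proteoglycan list 6 of 12 (median 0.07) and the other fibroblast and stroma list 6 of 18 (median -0.17). Pdgfa was at 0.65 and Cd34 at -0.92 there, both with a limma adjusted p of 1. The comparisons share libraries, so opposite signs between them are not separate measurements.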

How the data were processed

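RNA of granulosa cells was measured in 9 libraries, 3 per group, grouped by the labels. The authors deposited 1 table of FPKM. The submitters' processing notes name DESeq2 1.20.0, featureCounts 1.5.0-p3, HISAT2 2.0.5 and fastp 0.23.2 without their roles, and build GRCm39 (mm39). No source used here gives the strand setting, so reads of overlapping or antisense genes cannot be told apart.

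Symbols and exon lengths came from GENCODE M21, an annotation of another build whose coordinates are not printed, and 52125 of 56748 identifiers matched a symbol. The only coordinates printed are those of RefSeq promoters, on GRCm38.p6. With those lengths, or for 849 genes a length that was searched for, 14427 of 14431 tested genes gave whole reads within 0.02 reads, or within a wider margin for genes of many reads. The 8 tested stroma genes were among them by annotated length. Pi16, which was not tested, also gave whole reads by annotated length. Replicates differed by more than sampling noise, with chi-square per degree of freedom of 13.4 to 139 over 9 pairs.

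Genes with at least 1 FPKM in at least 3 libraries were fitted as log2(FPKM + 1) in limma 3.58.1 (R 4.3.3), with all 9 libraries, group means and a variance trend, with Benjamini-Hochberg adjustment over 14431 genes with a threshold of 0.05, two-sided. Log2 differences on this scale understate changes of low genes. Limma voom on recovered reads was an alternative. Correlations were planned as descriptions, and two-sided exact permutation p-values were added (Python 3.11.15, scipy 1.17.1). The permutations ran over all libraries without regard to group, so differences between groups enter these p-values. Depth limits precision most for Pi16, Mfap5 and Dpt.

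The genes and lists were chosen with earlier results of these data known. Named genes are the 9 stroma genes, the 3 genes of smallest p per list and comparison or fewer, chromosomal neighbours, the 10 genes most like the stroma genes (1 of them is not reported here), and defining markers of other cell types. Alternatives covered the pseudocount, the filter, 2 scalings, the samples in the fit, a replicate block, voom, and libraries left out.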

Additional observations from a re-analysis of the deposited data

How the results depend on the processing

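In every alternative run, 0 of the stroma genes were called in any of the 3 comparisons, and the lowest adjusted p was 0.341 in CTX against Control, 0.221 in CTX_HCQ against CTX and 0.706 in CTX_HCQ against Control. Calls over all genes were 0 except without Control 1, with 13 in CTX against Control and 10 in CTX_HCQ against CTX. Of 153 values of the stroma genes per comparison, 3 turned their sign in CTX against Control, 14 in CTX_HCQ against CTX and 16 in CTX_HCQ against Control. The 153 include Pi16, whose sign was not scored because it has no test, so any turns of Pi16 are missing from these counts. They also include alternatives that cannot move a log2 difference, and so could not turn its sign. These are the filter, the fit of only the 2 groups compared, the replicate block, and leaving out a library of the group not compared. The counts of turns are therefore low for the number of values. The cause of the turns was not tested. Without CTX 3, Dpt in CTX against Control was at -0.86, beside -0.41 with all libraries. At most 51 reads per library limit Pi16, which has no test.

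Leaving out 1 library at a time gave these ranges of log2 differences. In CTX against Control, Mfap5 ran from -0.14 to 0.24. In CTX_HCQ against CTX, Tcf21 ran from -0.69 to 0.29, Dpt from -0.51 to 0.51, Mfap4 from -0.36 to 0.078, Twist1 from -0.91 to 0.023, Lum from -0.062 to 0.79, Ogn from -0.69 to 0.51 and Dcn from -0.098 to 0.45. In CTX_HCQ against Control, Lum ran from -0.35 to 0.50, Dcn from -0.48 to 0.071, Dpt from -0.92 to 0.095, Podnl1 from -0.031 to 0.77, Col3a1 from -0.53 to 0.061, Mfap5 from -0.36 to 0.025, Pdgfra from -0.080 to 0.21, Ogn from -0.39 to 0.80 and Tcf21 from -0.33 to 0.65.

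Without CTX 3 and CTX_HCQ 3 together, Mfap5 was at -0.025 in CTX against Control. In CTX_HCQ against CTX, Tcf21 was then at 0.34, Dpt at 0.96, Mfap4 at 0.18 and Twist1 at 0.10. Lum at 0.72, Dpt and Dcn at 0.56 had unadjusted limma p of 0.00975, 0.0215 and 0.0329, each with an adjusted p of 0.873. In CTX_HCQ against Control, Lum was then at 0.50, Dcn at 0.071, Dpt at 0.095, Podnl1 at -0.031 and Col3a1 at 0.061. Scaling to the sum without mitochondrial genes gave 0.0054 for Tcf21 and 0.030 for Dpt in CTX_HCQ against CTX, and 0.0044 for Lum in CTX_HCQ against Control. Voom gave 0.034 for Dpt in CTX_HCQ against CTX and 0.021 for Lum in CTX_HCQ against Control. It took recovered reads as the library size, which in CTX_HCQ 3 was 13879655 against 15344525 behind its FPKM. In some libraries recovered reads were the larger number, among them CTX 1 with 17285033 against 16820966 and Control 3 with 16733964 against 16485865. The part of these gaps in the voom values was not tested.

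With the replicate number as a block, 0 of the stroma genes and 0 of all genes were called in each comparison. Deviations of same-numbered libraries correlated at -0.457 to 0.135, and 0 of 9 libraries were closest to one of their own number. The labels give only a number, and whether libraries of equal number share a batch was not tested.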
